A study of Arabidopsis thaliana with 20 samples.

Results

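Class A heat shock factors are transcription factors with an activation domain, and the 10 genes described here are those of the class other than HSFA2 that were picked out by gene identifier. They are the 4 class A1 genes HSFA1A (AT4G17750), HSFA1B (AT5G16820), HSFA1D (AT1G32330) and HSFA1E (AT3G02990), and 6 further genes, HSFA3 (AT5G03720), HSFA4A (AT4G18880), HSFA6B (AT3G22830), HSFA7A (AT3G51910), HSFA7B (AT3G63350) and HSFA8 (AT1G67970). They are 10 of 27444 nuclear protein-coding genes. A gene counted as having a peak where a list named it or its promoter, and 5 of the 10 had at least 1 peak in at least 1 list, with 27 peaks in all, against 16.8% of coding genes with a peak in any list.

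The binding of HSFA1d was mapped by chromatin immunoprecipitation and sequencing (ChIP-seq) in whole Arabidopsis thaliana seedlings, 2 weeks old, of mixed Columbia-0 and Wassilewskija ecotype, grown at 22 °C in constant light. All plants carried pHSFA1d::HSFA1d-GFP, HSFA1d fused to green fluorescent protein under the HSFA1d promoter, and an anti-GFP antibody pulled the fusion down. For heat, untreated seedlings at time 0 (HT0) were set against seedlings kept at 37 °C for 30 min (HS), with 3 immunoprecipitates and 3 inputs per condition from batches of about 60 seedlings. For wounding, time 0 (WT0) was set against seedlings sampled 10 min (W10min), 3 h (W3h) or 24 h (W24h) after they were cut repeatedly with a razor, with 1 immunoprecipitate and 1 input per condition. Reads of a condition were concatenated, so there is 1 list of peaks per condition, the values below come with no replicate error and no test was made. The labels state at least 10 M mapped reads per library, and the depth is otherwise unknown. Peaks hold no expression values, so the tissue label could not be checked against marker genes, and occupancy in few cells cannot be told apart from weak occupancy in many.

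Heat shock factors bind heat shock elements, repeats of a short motif in promoters, as trimers. In Arabidopsis the class A1 factors are known as master activators that are held inactive by chaperones of the HSP70 and HSP90 families in unstressed plants. When proteins unfold they switch on chaperone genes and a further layer of transcription factors, HSFA2, HSFA7A and HSFA7B among them, which extend the response. HSFA3 is known as a target of the drought and heat factor DREB2A.

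The longest list, HS, held 2103 peaks and the shortest, W24h, 509. Fold enrichment and q are the authors' own values for each peak. They describe and rank peaks only within a list, and a percentile below is the share of a list's peaks with a fold (or a −log10 q) at or under that of the peak. From 7.4% (W10min) to 16.4% (HT0) of the peaks of a list had a q of 1.

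The 10 genes split into 1 locus with peaks throughout, 2 loci with strong peaks after heat, 2 with weak peaks and 5 with no peak. HSFA1D had a peak in all 6 lists. HSFA7A had one in HS, WT0, W10min and W3h, HSFA7B in HS and W10min, HSFA3 in WT0 and W10min, and HSFA4A in HT0. HSFA1A, HSFA1B, HSFA1E, HSFA6B and HSFA8 were named by no row of any list.

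Set against all coding genes, 2 of the 10 had a peak in HT0 where 3.11% of coding genes did, and 3 of the 10 in HS against 7.82%. In the wounding series 4 of the 10 had a peak in W10min (7.1% of coding genes), 3 in WT0 (7.1%), 2 in W3h (2.55%) and 1 in W24h (1.46%). With peaks of a q of at most 0.05, the heat series had 3 of the genes in HS (4.66% of coding genes) and 1 in HT0 (1.42%). The wounding series then had 3 in W10min (4.0%), 2 in W3h (1.53%), 1 in WT0 (3.69%) and 0 in W24h (0.802%). HSFA3 and HSFA4A had no peak at that q in any list. Each of these counts other than the 0 in W24h includes HSFA1D, of which the plants carry an added copy. The 6 genes outside class A1 made up the rest, from 0 (W24h) to 3 (W10min) with all peaks. At a q of at most 0.05 they ranged from 0 (HT0, WT0 and W24h) to 2 (HS and W10min). Where they had 0, a count above the coding share rests on the HSFA1D locus alone.

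**Figure D1:**
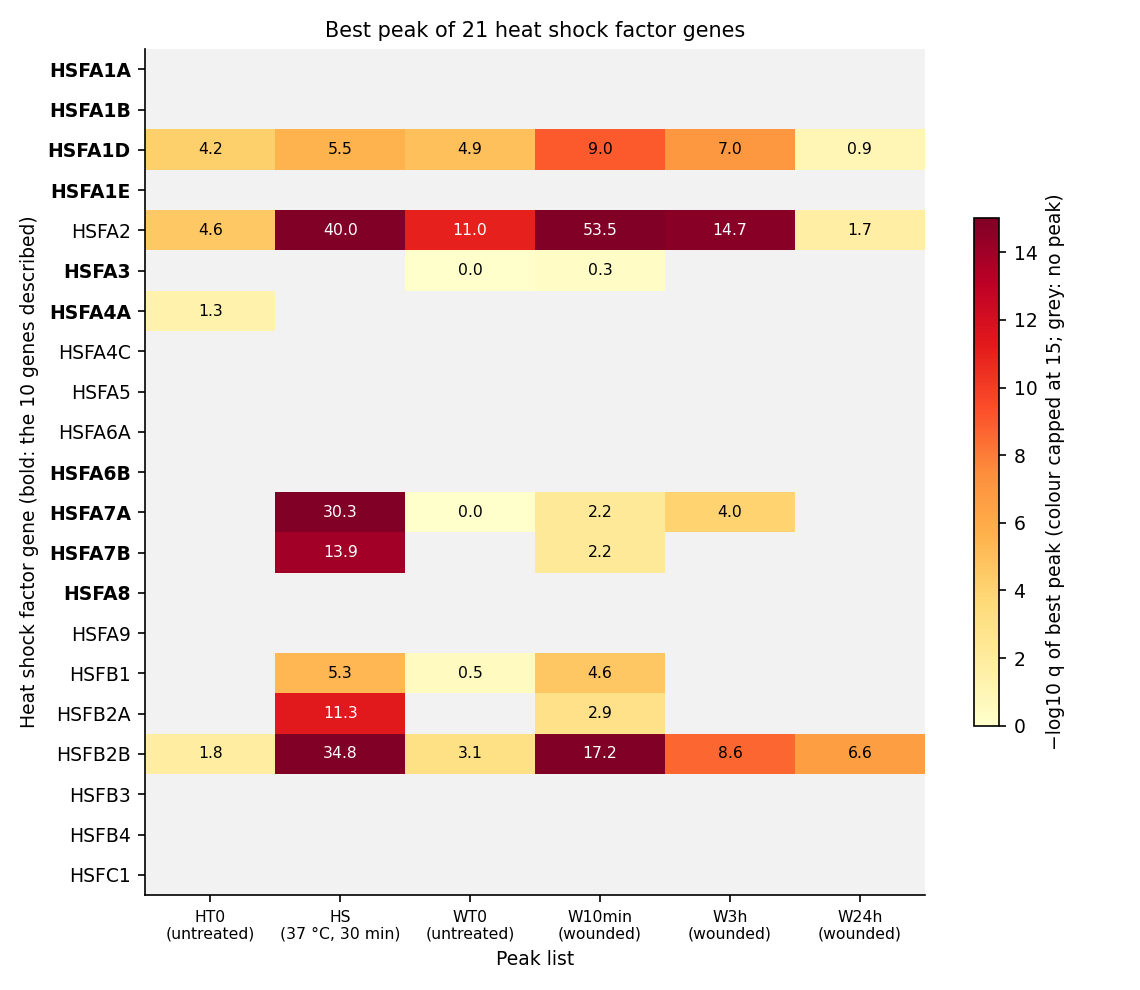
The −log10 q of the best peak (colour, capped at 15, and printed value) of 21 heat shock factor genes (rows) in the 6 peak lists (columns), with the 10 genes described in bold and grey for no peak. HSFA1D has a peak in all 6 columns, HSFA7A and HSFA7B have values of 30.3 and 13.9 in HS, and HSFA1A, HSFA1B, HSFA1E, HSFA6B and HSFA8 have none.

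Among the class A1 genes, HSFA1D, which encodes the tagged factor, was the only one with a peak. The plants carry an added copy of its promoter and of HSFA1d coding sequence, and reads from the added copy and from the gene in its place cannot be told apart. Each list held a peak across the boundary of promoter and gene. In the heat series its fold was 1.71 in HT0 (q 6.75e-05) and 1.99 in HS (q 3e-06). For wounding, the WT0 list gave it a fold of 1.88 (q 1.16e-05) and the W10min list one of 2.30 (q 1.05e-09). Its W3h fold was 1.98 (q 1.09e-07) and its W24h fold 1.47 (q 0.253). The median fold of a list's peaks ran from 1.67 (HT0) to 1.96 (W10min). The folds and q values of this peak thus describe it within each list, and a change between lists was not tested.

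By fold, in the heat series this HSFA1D peak lay at the 55.2 percentile of HT0 and the 70.9 percentile of HS. In the wounding series it lay at the 50.7 percentile of WT0, the 78.3 percentile of W10min, the 63.6 percentile of W3h and the 8.64 percentile of W24h. The lists differ in length, so these percentiles place the peak only within each list, and a change between lists was not tested. Among peaks with a q of at most 0.05 alone, the peak was at the 14.7 percentile of HT0, 45.0 of HS, 3.56 of WT0, 61.1 of W10min and 40.8 of W3h, while the W24h peak has a q above 0.05. In HS, 611 peaks had a higher fold, and in W10min 314 did.

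The HSFA1D peaks at the gene start lay on chromosome 1 (TAIR10) at 11659984 to 11661339 (HT0) and 11659979 to 11660755 (HS) in the heat series. In the wounding series they lay at 11660341 to 11660671 (WT0), 11660274 to 11660678 (W10min), 11660299 to 11660643 (W3h) and 11660319 to 11660482 (W24h). They were annotated to the HSFA1D promoter and gene, and also to the promoter of the neighbour AT1G32337, which is on the other strand. The first base of HSFA1D in the authors' annotation was 11660376, and the gene runs toward lower coordinates. The HT0 peak was 1356 bp wide, reaching from 963 bp upstream of the gene start into the gene. The other lists had a narrower peak there, from 777 bp in HS to 164 bp in W24h, and HS and W3h listed further weak promoter peaks upstream of it, with q values of 0.421 and 0.778 in HS and of 1 in W3h.

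Each list also held an HSFA1D peak within the gene and far from the promoter. Its fold was 1.52 in HT0 (q 0.018) and 1.68 in HS (q 0.00342). Across the wounding series it was 1.92 in W10min (q 0.000835), 1.67 in WT0 (q 0.0216), 1.59 in W24h (q 0.114) and 1.55 in W3h (q 0.0363). In 4 lists the far edge of this peak fell at nearly the same base, 11657391 in HT0, 11657399 in HS, 11657383 in W10min and 11657390 in W3h, a span of 16 bp that lay between 2977 and 2993 bp from the first base of the gene. On the promoter side, the outermost edge was 11661339 in HT0 and in W3h and 11661349 in HS, a span of 10 bp. This span covers only the lists picked because their edge lay far upstream, at 963 or 973 bp. For HS and W3h that edge belonged to a separate weak promoter peak. The outermost edge lay 295 bp upstream in WT0, 302 bp in W10min and 106 bp in W24h. In WT0 the peak within the gene lay at 11657495 to 11657644. The W24h peak, at 11658188 to 11658455, shared no base with those of WT0, W10min or W3h and lay within those of HT0 and HS.

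**Figure D2:**
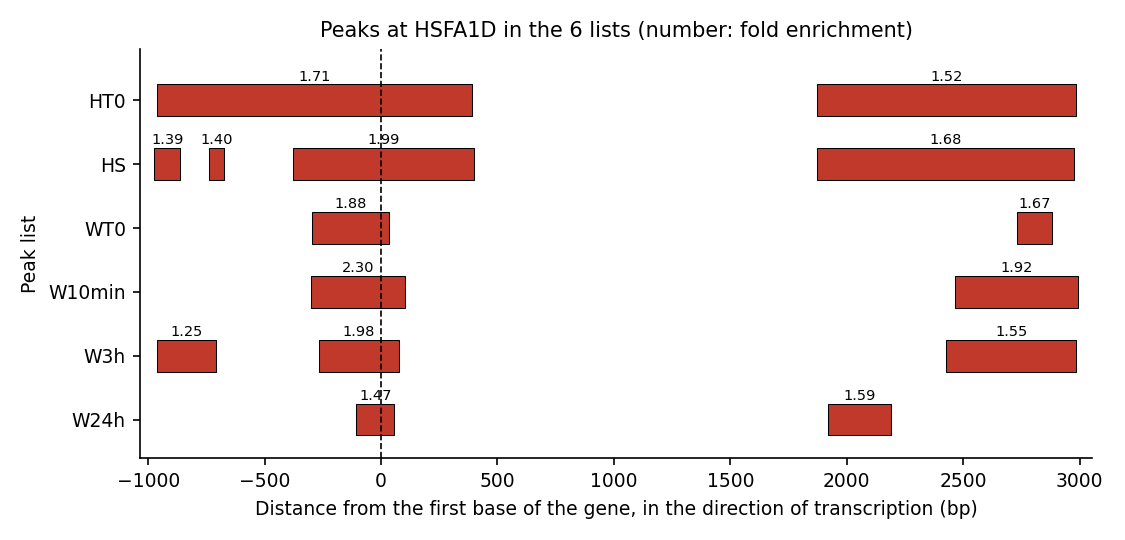
Extent of every HSFA1D peak in the 6 lists (rows) by distance from the first base of the gene in bp (horizontal axis, negative upstream), with the fold enrichment of each peak printed above its bar and the gene start as a dashed line. Each list has a peak across the gene start and another within the gene, which in HT0, HS, W10min and W3h ends between 2977 and 2993 bp from the gene start.

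The HSFA1D peaks also differed from those of the other genes in how fold and q went together. All 15 HSFA1D peaks had a fold that no other peak of the same list shared, whereas the folds of the other 12 peaks were each shared by between 5 and 106 peaks of their list. Peaks with an unshared fold made up 11.3% (WT0) to 48.3% (W24h) of a list. All 15 HSFA1D peaks stood higher by −log10 q than by fold, by 9.08 percentile points (HS, at the gene start) to 40.7 points (WT0, within the gene). The 12 other peaks stood at most 5.71 points lower by −log10 q than by fold, and none stood higher.

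Among peaks with an unshared fold, the median of this difference was 4.52 points in W24h to 10.6 points in HS, so part of it is common to such peaks. In HT0, 1.66% of the other such peaks had a difference as large as the 25.5 points of the HSFA1D peak within the gene, and 6.03% one as large as the 18.2 points of the peak at the gene start. In HS the share was 61.9% for the peak at the gene start and 12.9% to 38.1% for the other HSFA1D peaks. Among the wounding lists it was 5.99% and 6.59% in WT0 and 8.98% and 17.1% in W24h. It was 12.8% and 31.6% in W10min and 12.3% to 30.9% in W3h. The cause of the difference was not tested.

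**Figure D3:**
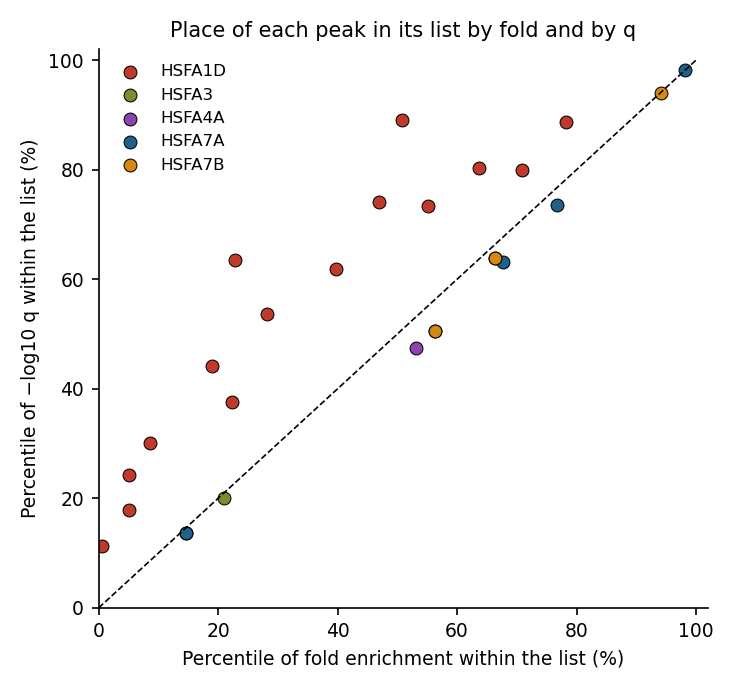
Percentile of each of the 27 peaks within its own list by fold enrichment (horizontal axis, %) and by −log10 q (vertical axis, %), coloured by gene, with a dashed line where both are equal. The 15 HSFA1D peaks lie above the line, by 9.08 to 40.7 points, and the 12 peaks of the other genes on or below it.

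HSFA1A, HSFA1B and HSFA1E, the other class A1 activators, which act in part redundantly with HSFA1D, had no peak in 18 pairs of gene and list. Of the coding genes, 22830 (83.2%) likewise had no peak in any list. In the order of coding genes in RefSeq, the 2 nearest neighbours on each side of HSFA1B and of HSFA1E had no peak either, and of the 4 neighbours of HSFA1A only SYP23 had one, in W10min.

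HSFA7A and HSFA7B, closely related heat-induced factors of the second layer, carried the strongest HS peaks of the 10 genes. HSFA7A had a single HS peak of 4.72-fold and q 5.21e-31 at chromosome 3, 19264647 to 19265990. It was 1344 bp wide and covered both sides of the gene start, from 647 bp upstream to 696 bp within the gene. Its fold was at the 98.2 percentile of the list, with 37 of 2103 peaks higher.

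HSFA7B had 3 HS peaks, all in its promoter. The strongest, 3.39-fold with a q of 1.17e-14, lay at chromosome 3, 23398840 to 23399429, and its fold was at the 94.1 percentile, with 125 peaks higher. The other 2, at 23398405 to 23398481 and 23398583 to 23398721, were each 1.82-fold (q 0.0315) and were also annotated to AT3G63340. The strongest peak was also annotated to the promoters of AT3G63340 and of AT3G63370 (OTP86, of the pentatricopeptide repeat family). The list thus assigns none of the 3 HS peaks to HSFA7B alone, whereas no other gene shared the HSFA7A peak.

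HT0 listed no peak at HSFA7A or HSFA7B. These were thus the 2 of the 10 genes gained in HS, named in HS and not in HT0, against 6.02% of coding genes, and HSFA4A was the 1 gene with the reverse, against 1.31%. HSFA1D had peaks in both lists. The untreated list of the other series, WT0, did hold a peak at HSFA7A, of 1.58-fold and a q of 1, which lay wholly within the HS peak. At a q of at most 0.05 in both lists the same 2 genes were gained (3.89% of coding genes), and HSFA4A had no HT0 peak. With both time 0 lists as control, HSFA7B was the only gained gene of the 10.

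In W10min, HSFA7A and HSFA7B each had 1 promoter peak of 2.09-fold and a q of 0.00642, at the 66.4 percentile by fold. These values are a step shared by 59 peaks of that list, so the equality of the 2 genes carries no further information. The HSFA7A peak was at 19264849 to 19265085, and the HSFA7B peak at 23399015 to 23399175, again shared with AT3G63340 and AT3G63370. Both lay wholly within the strongest HS peak of the same gene.

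At 3 h HSFA7A had 2 peaks. The promoter peak, at 19264787 to 19265063, was 2.19-fold with a q of 0.000103, at the 76.8 percentile. A second peak within the gene, at 19265757 to 19265943, was 1.99-fold with a q of 0.00269. Both again fell within the extent of the HS peak. No W3h peak named HSFA7B, and no W24h peak named either gene.

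**Figure D4:**
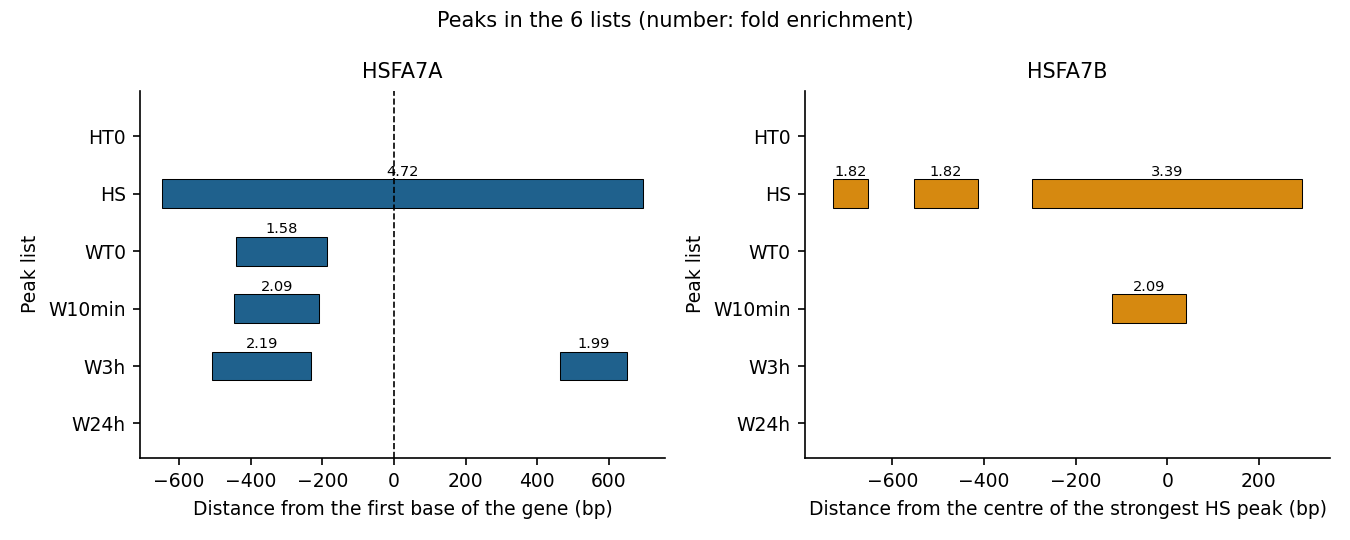
Extent of every HSFA7A peak (left, by distance from the first base of the gene in bp) and every HSFA7B peak (right, by distance from the centre of its strongest HS peak in bp) in the 6 lists, with the fold enrichment printed above each bar. The HS peaks of 4.72-fold and 3.39-fold are the widest at each gene, and every wounding peak lies within them.

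Against WT0, HSFA7B was the 1 of the 10 genes gained in W10min, where 4.23% of coding genes were gained, and no gene of the 10 was lost (4.22% of coding genes). WT0 named HSFA7A through a peak of q 1, so HSFA7A was not counted as gained. The W10min peak of HSFA7A met that peak by 233 bp and its W3h promoter peak by 211 bp. Its W3h peak within the gene met no WT0 peak. When only peaks with a q of at most 0.05 counted in both lists, HSFA7A and HSFA7B were gained in W10min (2.43% of coding genes) and HSFA7A in W3h (0.605%). With all listed peaks none of the 10 was gained in W3h (1.06% of coding genes) or W24h (0.547%). HSFA3 was lost in W3h (5.61% of coding genes), and HSFA3 and HSFA7A were lost in W24h (6.18%). Neither gene had a WT0 peak with a q of at most 0.05, so neither was lost at that q.

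**Figure D5:**
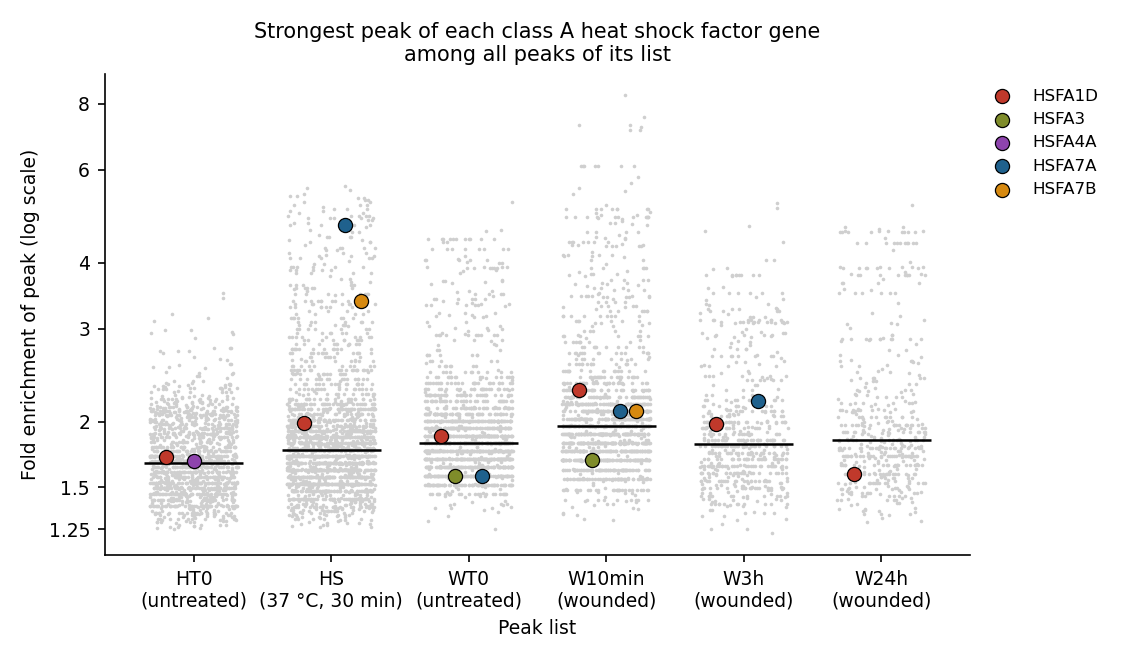
Fold enrichment (log scale) of all peaks of each list (grey points), the list's median (black line) and the strongest peak of each of the 5 genes with any peak (coloured points). HSFA7A at 4.72 and HSFA7B at 3.39 stand far above the HS median of 1.77. The HSFA1D points are the peak at the gene start, except in W24h, where the peak within the gene, at 1.59, is the higher. HSFA3 lies below the median in WT0 and W10min, as do HSFA7A in WT0 and HSFA1D in W24h.

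HSFA3, a factor of late thermotolerance, had a single promoter peak in WT0 and in W10min and none in HS or HT0. The WT0 peak, at chromosome 5, 973973 to 974250, was 1.58-fold with a q of 1, a pair of values shared by 87 peaks of the list. The W10min peak, at 973947 to 974260, was 1.69-fold with a q of 0.507 and covered the whole WT0 peak. Both were low in their lists by fold, at the 14.6 and 21.0 percentile. DREB2A, the known activator of HSFA3, had a peak of 4.52-fold in HS (q 2.05e-28) and of 2.90-fold in W10min (q 3.78e-08), and none in the other 4 lists.

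HSFA4A, a factor of oxidative and salt stress, had 1 promoter peak, in HT0, at chromosome 4, 10351788 to 10351888. It was 101 bp wide, of 1.68-fold and q 0.051, just above a threshold of 0.05, and was also annotated to the promoter of AT4G18890 (BEH3). HSFA6B, known for heat responses that depend on abscisic acid, and HSFA8, known for sensing oxidation, had no peak.

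Set side by side, the class A1 genes had a peak in 6 of 24 pairs of gene and list, all at HSFA1D. The other 3 class A1 genes had one in 0 of 18 pairs, and the 6 genes outside class A1 in 9 of 36. Of all coding genes, 1.46% (W24h) to 7.82% (HS) had a peak in a list. At a q of at most 0.05 the numbers were 5 at HSFA1D and 5 outside class A1, against 0.802% (W24h) to 4.66% (HS) of coding genes. The HSFA1D peaks below are 1 locus seen in 6 lists. The share of all listed peaks in each place, or at a q of at most 1e-05, was not computed. The counts that follow thus cannot be set against other peaks. Of the 15 HSFA1D peaks, 6 spanned promoter and gene, 6 lay within the gene and 3 in the promoter. Of the 12 peaks at the other genes, 10 were in the promoter, 1 within the gene (HSFA7A in W3h) and 1 over both (HSFA7A in HS). Of the 27 peaks 5 had a q of at most 1e-05, those at the start of HSFA1D in HS, W10min and W3h and the strongest HS peaks of HSFA7A and HSFA7B.

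Of the remaining heat shock factor genes, some had peaks in many lists and others in none. HSFA2, the class A factor that prolongs the heat response, had a peak in all 6 lists, at the 88.4 percentile by fold in HT0 and with no higher peak in HS. The 4 other class A genes, HSFA4C, HSFA5, HSFA6A and HSFA9, had none. Of 6 class B and C genes, which include repressors that restrain the heat response, 3 had a peak. HSFB2B had one in all 6 lists, HSFB2A in HS and W10min as HSFA7B did, and HSFB1 in HS, WT0 and W10min. In all, 9 of 21 heat shock factor genes, HSFA1D with its added copy among them, were named in at least 1 list, against 16.8% of coding genes.

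Of 16 genes known to act around the class A factors, such as the inhibitory chaperones, HSFA1 partners and DREB2 factors, HS named 11 (7.82% of coding genes) and HT0 named 3 (3.11%), and 8 were gained in HS (6.02%). In the wounding series W10min named 8 (7.1%), W3h named 7 (2.55%), WT0 named 5 (7.1%) and W24h named 3 (1.46%). At a q of at most 0.05, HS named 10 (4.66% of coding genes) and HT0 named 2 (1.42%). W10min then named 8 (4.0%), W3h 5 (1.53%), WT0 5 (3.69%) and W24h 3 (0.802%). HSBP, a protein that binds heat shock factors, had no peak.

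Presence over the 6 lists was used as a measure of likeness. HSFA1D shared a peak in all 6 with 134 other coding genes, among them HSFA2, HSFB2B, HSC70-1 and HSP90.2 of the listed genes. HSFA7A had the same presence (HS, WT0, W10min and W3h) as HSP101, a disaggregase, and ROF1, a peptidyl-prolyl isomerase that binds HSP90, among 81 coding genes. HSFA7B had the same presence (HS and W10min) as DREB2A, the coactivator MBF1C and HSFB2A, among 249 coding genes. The 3 presence patterns were those of 0.492%, 0.295% and 0.907% of coding genes. The match of HSFA7A rests on its WT0 peak, which has a q of 1. At a q of at most 0.05 HSFA7A was left in HS, W10min and W3h, HSP101 in HS, WT0 and W10min, and ROF1 in HS, WT0, W10min and W3h, so neither matched HSFA7A. At that q HSFA1D lost W24h, which HSFA2, HSFB2B, HSC70-1 and HSP90.2 kept. HSFA7B, DREB2A, MBF1C and HSFB2A each kept HS and W10min.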

How the data were processed

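The 20 samples, immunoprecipitates and inputs, were sequenced as single 50-base reads. Bowtie2, SAMtools and MACS2 were used with build TAIR10, per the submitters' processing notes. Their versions and settings are not given in the sources here. The authors concatenated reads per condition, per the labels, and deposited 6 lists of annotated peaks. The fold enrichment is a ratio per peak and the significance a −log10 q, both deposited by the authors, per the file headers.

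Starts count from 0 (in HT0, 116 rows met a RefSeq gene start after adding 1, and 2 without), so 1 was added. Rows of 1 list with equal fold and q that overlapped or lay at most 1 base apart were joined to peaks. A check of this step used 2000 simulated peaks that were cut by the same rule and lay well apart. It could not show whether neighbouring peaks with equal values are wrongly joined. A gained gene was named in the treated list and not in its own time 0 list. Peaks met when they shared at least 1 bp. Promoter rows reached 3001 bp. Names, gene order and the background of 27444 coding genes came from RefSeq (TAIR10.1), whose coordinates served only for that start check and for gene order; all 10 genes matched. A gene's first base was read from peaks split at its promoter boundary.

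The genes and lists were chosen with earlier results of these data known. Genes named were the 10, fixed lists of heat shock factors and surrounding regulators, and genes sharing a peak. Heat shock elements were not analysed here. Python 3.11.15, pandas 2.3.3 and matplotlib 3.10.9 were used.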

Additional observations from a re-analysis of the deposited data

How the results depend on the processing

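Each list was made from concatenated reads, so no replicate could be left out. No paired analysis was possible because the peaks of a condition carry no replicate number and no result came from a test. The depth of each library is unknown, so no gene without a peak is shown to be unbound. At a q of at most 0.05 the genes with a peak went to 1 in HT0, 1 in WT0 and 0 in W24h, and at a q of at most 1e-05 to 1 in W10min, 1 in W3h, 0 in W24h, 0 in HT0 and 0 in WT0. Among peaks at or above the median fold they went to 1 in WT0 and 0 in W24h, and with 509 peaks from every list to 0 in HT0, 0 in WT0 and 1 in W10min. The other 17 of these counts, those of HS among them, stayed within 1.5 times. Shares of coding genes were computed only for all peaks and for a q of at most 0.05. Counts at the other settings thus cannot be set against all genes. Genes gained in HS went from 2 to 1 with both time 0 lists as control, and at a q of at most 0.05 those gained went from 1 to 2 in W10min and from 0 to 1 in W3h. With a reciprocal overlap of 50%, genes whose W24h peak met a WT0 peak went from 1 to 0. Ranking rows as deposited moved the HSFA1D percentile to 51.7 (HT0) and 64.1 (HS) in the heat series and to 74.2 (W10min), 47.3 (WT0), 55.3 (W3h) and 18.6 (W24h, from 22.4 for the peak within the gene, the higher there) in the wounding series, that of HSFA4A to 50.0 in HT0, that of HSFA7A to 96.8 in HS, 62.8 in W10min and 67.6 in W3h, and that of HSFA7B to 90.7 in HS and 62.8 in W10min. Ranking only peaks with a q of at most 0.05 moved HSFA1D to 14.7 (HT0), 45.0 (HS), 3.56 (WT0), 61.1 (W10min) and 40.8 (W3h), HSFA7A to 96.7 in HS, 39.9 in W10min and 62.3 in W3h, and HSFA7B to 88.7 in HS and 39.9 in W10min, since the weak peaks below them were left out. The planned search for heat shock elements was not run.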

Other observations

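ELIP1, the gene next to HSFA6B, which encodes a chlorophyll-binding protein induced by light stress, had a peak in HS, WT0 and W10min. CTR1, the gene next to HSFA3, a kinase that restrains ethylene signalling, had a peak in HS, WT0, W10min and W3h, none of which was annotated to HSFA3, itself named in WT0 and W10min. These neighbours were chosen after their values were seen.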
